A study of Homo sapiens with 4 samples.

Results

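Translation initiation factor genes were followed in TPC1 cells at 6 h and 24 h of treatment with the RET inhibitor BLU6864. The genes were all protein coding rows of the count table whose symbol begins with EIF and a digit. The rule names symbols only, but it was set with earlier results of these data known. This gave 56 of 20372 genes in the table, of which 20356 are protein coding. The 56 genes divide into 52 factors, with their binding proteins, and 4 EIF2AK kinases, which phosphorylate the alpha subunit of eIF2 and are shown apart.

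TPC1 is an established line of papillary thyroid carcinoma that carries a CCDC6-RET fusion, so a RET inhibitor acts on the oncogene of these cells. The series compared 2 libraries of total RNA at 24 h with 2 at 6 h, and asked how gene expression moved between these times of treatment. All 4 libraries were from BLU6864-treated cells, and vehicle-treated libraries were not analysed here, so each difference below is between a later and an earlier time of the same treatment. The labels give a dose of 100 µM and 50 bp single-end reads while the methods give 100 nM and paired-end reads, and the 24 h libraries carry the label re-analysis. Nothing states that the 2 libraries of a time came from separate cultures, and P values then measure only the spread between these libraries, which may be technical.

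Translation initiation places a ribosome at the start codon of an mRNA. In this process eIF2 carries the initiator tRNA to the small ribosomal subunit, eIF2B reloads eIF2 with GTP, eIF3 is the large scaffold on the small subunit, and eIF4F (the cap-binding eIF4E, the scaffold eIF4G and the helicase eIF4A) brings the mRNA. The step is controlled through phosphorylation of eIF2 and through the 4E binding proteins, which mTORC1, a kinase complex downstream of growth factor receptors, holds inactive.

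Between 23917056 and 27457040 reads were counted on genes per library, and 12876 genes passed the filter on low counts and were tested. Libraries of the same time had a Spearman correlation of at least 0.998 over these genes and libraries of different times of at most 0.941. Same-time libraries were not copies of each other, since the chi-square of their counts over genes was 10.0 times its degrees of freedom for the 6 h pair and 7.65 times for the 24 h pair. Of the thyroid markers, PAX8 had 19124 to 22978 reads per library, FOXE1 rose (0.84 on the log2 scale) and TG fell (-1.09), while NKX2-1 and TSHR had 0 in all 4. Of the epithelial markers KRT7 and KRT18 rose (log2 fold changes 0.84 and 0.37), KRT19 fell (-1.59), KRT8 did not pass (-0.05), EPCAM had 1 to 11 reads and CDH1 1 to 8. The 6 white blood cell markers and the endothelial CDH5 had at most 5 reads in any library. Of the fibroblast markers, LUM rose from 42.1 and 38.4 to 70.7 and 64.2 normalized counts, with DCN at 0 or 1 read and PDGFRA at 3 to 11, and the part of these shifts in the results was not tested.

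Of the 52 factor genes, 48 were tested. At 24 h 28 of the 48 (58.3%) were higher and 7 (14.6%) were lower at an adjusted P under 0.05 in edgeR's quasi-likelihood test, and 13 did not pass. Over all genes tested the background was 33% higher and 32.6% lower, or 65.6% in either direction. The median log2 fold change of the factors was 0.20, against 0.0029 for all genes, with a range from -0.44 to 1.12. Most of the rises were small. The methods of the paper set cutoffs for falls only, an unadjusted P under 0.01 in DESeq2 with a fall of over 0.5 in log2 fold change. Here these sizes were used in both directions with edgeR's P, and are called the cutoffs of the methods. Past them 11 factors (22.9%) were higher and 0 were lower, also 0 with DESeq2, against 17.4% and 17.7% of all genes.

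The 24 h libraries both lay above both 6 h libraries in 32 of the 48 factors (66.7%), against 41% of all genes, and both lay below in 11, against 40.8%. The groups overlapped in 5 factors. Together the factor genes took 0.905% and 0.919% of the reads counted at 6 h, and 1.07% and 1.04% at 24 h. With the eIF3 subunits left out, 17 of 35 factors (48.6%) rose and 6 (17.1%) fell, against 33% and 32.6% of all genes tested. Their median log2 fold change was 0.16. In bulk RNA a change in the cells present and a change in RNA per cell cannot be told apart.

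**Figure D1:**
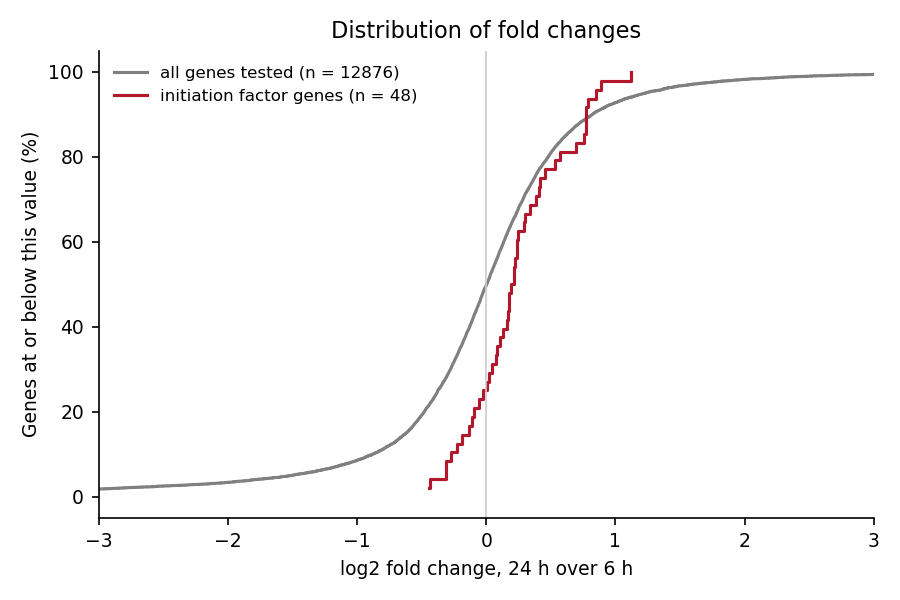
Cumulative share of genes (%) by log2 fold change at 24 h over 6 h, for the 48 factor genes (red) and all 12876 genes tested (grey, ends of the range not drawn). The factors start at -0.44, reach 50% near 0.20 and end at 1.12, while all genes reach 50% near 0.0029.

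The 4 factor genes that were not tested were at or near the floor. EIF4EBP3 had 0 and 2 raw reads at 6 h and 1 and 0 at 24 h. Of the 50-base stretches of its transcript, 71.6% also occur in ANKHD1-EIF4EBP3, so its level is uncertain. EIF3CL, a near-identical copy of EIF3C, had 8 and 4 reads and then 6 and 8. EIF4E1B, the germ cell form of eIF4E, had 0 reads in every library, which allows up to 3 reads per library for counting error alone. The last was the Y-linked EIF1AY, whose level is not given.

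**Figure D2:**
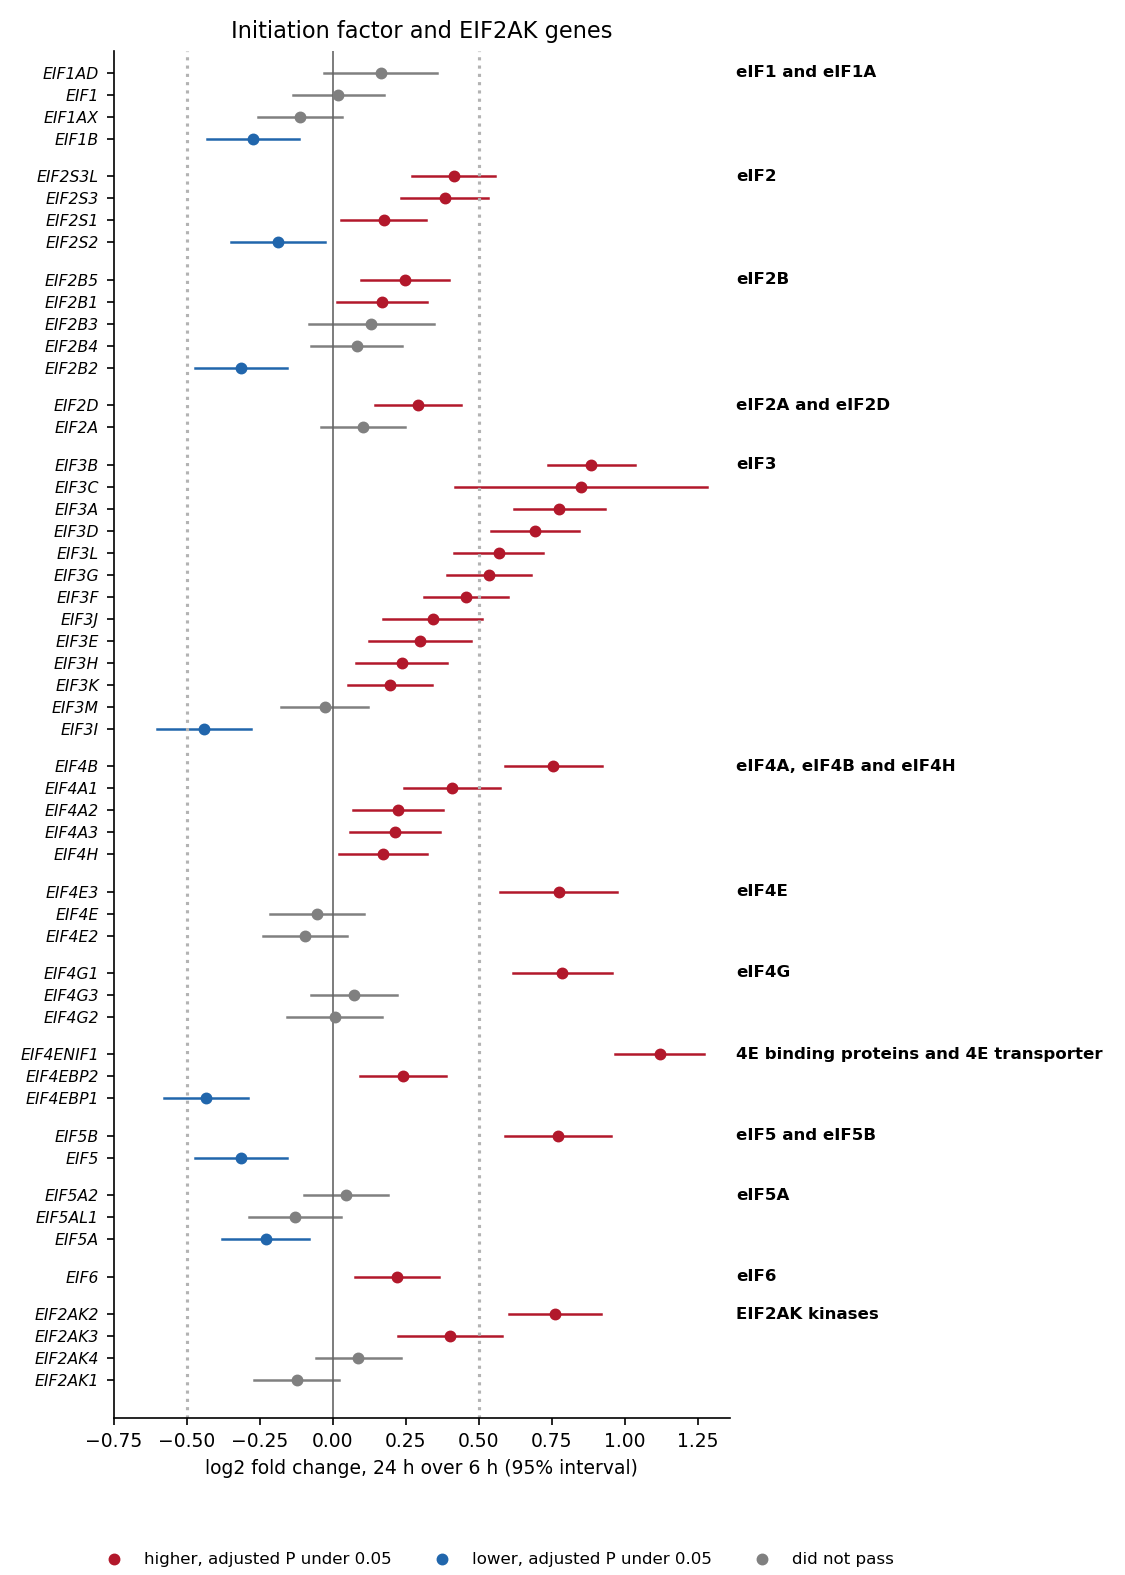
Log2 fold change at 24 h over 6 h (points) with its 95% interval (lines) for the 48 factor and 4 kinase genes tested, grouped by complex, with dotted lines at 0.5 and -0.5. EIF4ENIF1 lies farthest right at 1.12, and EIF3I at -0.44 is the lone lower gene among the 13 eIF3 subunits.

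The eIF3 complex held the most changed factors. Of its 13 tested subunit genes, 11 rose (84.6%), 1 fell (7.69%) and 1 did not pass, against 33% and 32.6% of all genes. Their median was 0.46 on the log2 scale, and 6 (46.2%) were higher past the cutoffs of the methods, against 17.4% of all genes. The complex took 0.298% and 0.317% of all reads at 6 h and 0.375% and 0.371% at 24 h.

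EIF3B, which with EIF3A forms the core on which eIF3 is built, rose most. It had 2226 and 2036 normalized counts at 6 h and 3919 and 3947 at 24 h, with a log2 fold change of 0.88 (SE 0.0723, adjusted P = 3.32e-11). EIF3A had 5826 and 5253 and then 9438 and 9529.95, a log2 fold change of 0.78 (SE 0.0752, adjusted P = 9.45e-10). Both 24 h libraries of each gene lay above both 6 h libraries, as in 41% of all genes tested. The 24 h libraries of each lay close together. EIF3D, a subunit that can bind the cap of some mRNAs directly, had 5141 and 5057 and then 8565 and 7909.7, a log2 fold change of 0.69 (SE 0.0734, adjusted P = 5.14e-09). The small RNA-binding subunit EIF3G had 2516 and 2595 and then 3762 and 3639.5, a log2 fold change of 0.53 (SE 0.0702, adjusted P = 2.29e-07).

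EIF3L and EIF3C also passed the cutoffs, but their reads can be shared with other genes. EIF3L had 6831 and 6999 normalized counts and then 9891 and 10619, a log2 fold change of 0.57 (SE 0.0743, adjusted P = 2.04e-07), and 56.6% of the 50-base stretches of its transcript also occur in transcripts of other genes. EIF3C had 43.2 and 49.9 and then 94.6 and 74.0, a log2 fold change of 0.85 (SE 0.210, adjusted P = 9.40e-04), and 98.8% of its 50-base stretches are found in EIF3CL. Its level is therefore uncertain. The other 5 subunits that rose, EIF3F, EIF3J, EIF3E, EIF3H and EIF3K, had log2 fold changes from 0.19 to 0.46.

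EIF3I, a WD-repeat subunit that binds EIF3B and EIF3G, went the other way. It had 9567 and 10944 normalized counts at 6 h and 7539 and 7571 at 24 h, with a log2 fold change of -0.44 (SE 0.0777, adjusted P = 1.86e-05). Both late libraries were lower than both early ones, as in 40.8% of all genes tested. The table interval of EIF3I overlaps that of TMEM234. Those of EIF3B, EIF3G, EIF3H, EIF3J, EIF3L and EIF3M also overlap other genes (SNX8, P2RY11, UTP23, SPG11, ANKRD54 and CCDC73). Within the reads of the eIF3 genes, which do not depend on scaling between libraries, the share of EIF3I was 12.4% and 13.4% at 6 h and 7.62% and 7.63% at 24 h, while that of EIF3A went from 7.57% and 6.44% to 9.54% and 9.61%. EIF3M, a subunit with a PCI domain, had a log2 fold change of -0.03 (95% interval -0.18 to 0.12).

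Per kilobase of transcript, EIF3I was the most abundant of the 10 tested subunits with under 10% of shared stretches at both times, at 7217 normalized counts per kb at 6 h and 5317 at 24 h. EIF3K was next at 4552 and 5210 per kb. EIF3B had 688 and 1270 per kb, so the levels of EIF3I and EIF3B lay closer at 24 h than at 6 h. These per-length levels use the reference transcript of each gene and not the isoforms in these cells.

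**Figure D3:**
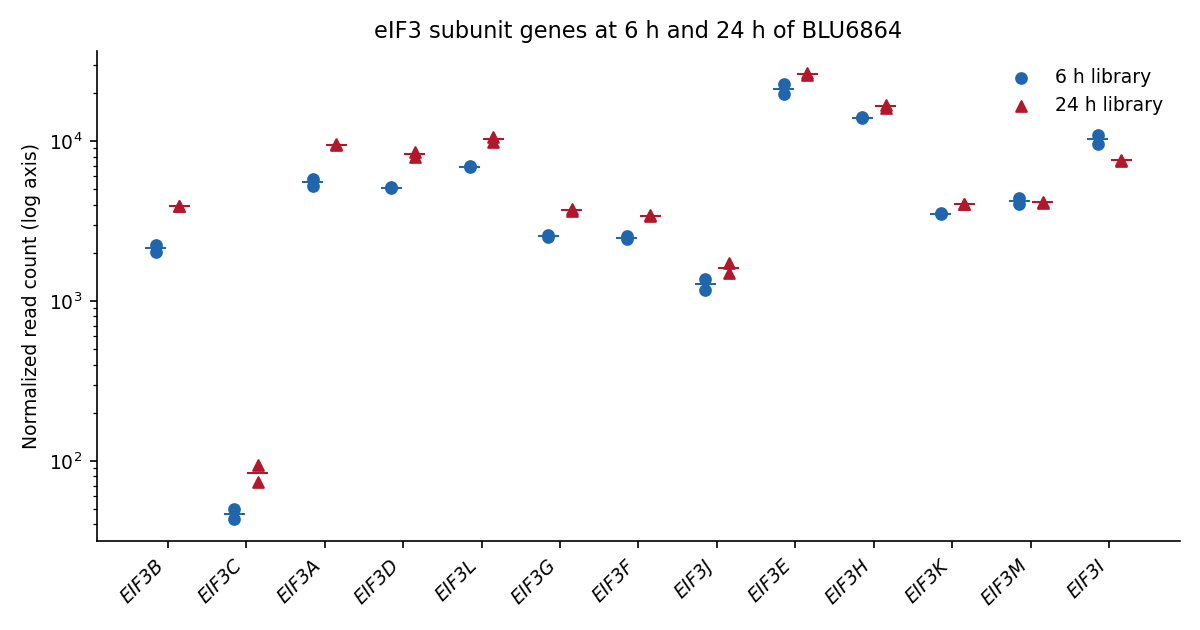
Normalized read counts (log axis) of the 13 tested eIF3 subunit genes in each 6 h (circles) and 24 h (triangles) library, with bars at the means, ordered by log2 fold change from EIF3B (0.88) to EIF3I (-0.44). EIF3M is the single subunit whose groups overlap, and EIF3C has the fewest counts.

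Promoters of EIF3B and EIF3D, which rose, and of EIF3I, which fell, are shown from RefSeq on GRCh38.p14, from 100 bases before to 25 bases after the annotated transcription start. Capitals mark the ETS core CCGGAA on either strand (also written TTCCGG), the E-box CACGTG, and a run of at least 8 pyrimidines that begins within 10 bases of the start, a feature of many translation genes. EIF3D and EIF3I lie at chr22:36529142-36529266 (minus strand) and chr1:32222307-32222431 (plus strand), and EIF3B at chr7:2354727-2354851 (plus strand).
EIF3B: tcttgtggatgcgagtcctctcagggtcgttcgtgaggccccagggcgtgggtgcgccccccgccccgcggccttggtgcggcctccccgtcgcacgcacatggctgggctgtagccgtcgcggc
EIF3D: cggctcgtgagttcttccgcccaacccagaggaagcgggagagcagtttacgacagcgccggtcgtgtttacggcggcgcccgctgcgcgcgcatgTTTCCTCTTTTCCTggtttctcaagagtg
EIF3I: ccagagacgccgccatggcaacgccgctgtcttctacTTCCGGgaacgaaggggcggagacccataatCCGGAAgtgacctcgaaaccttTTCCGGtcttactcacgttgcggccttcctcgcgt

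The falling EIF3I holds the ETS core 3 times in this stretch. Its pyrimidine runs begin more than 10 bases from the start and so are not marked. The rising EIF3D holds a marked pyrimidine run, and the rising EIF3B holds none of the marked motifs. In the longer window described next EIF3D also holds the ETS core, and a relation of any motif to direction was not tested. In the full window of 250 bases before to 50 after the start, 45 of 55 members had a RefSeq promoter, the others being EIF2AK1, EIF2S2, EIF2S3L, EIF3A, EIF3CL, EIF3E, EIF3G, EIF3H, EIF3L and EIF4EBP1. The ETS core was in 19 of the 45 (42.2%) against 20.1% of 27305 genes, CACGTG in 12 (26.7%) against 8.77%, and the pyrimidine run in 10 (22.2%) against 13.0%. The cyclic AMP response motif TGACGTCA was in 0 of the 45, against 2.25% of genes. These matches describe the letters of the window and not binding. The 27305 genes are every symbol with a RefSeq promoter, with no limit to protein coding or tested genes, while the members are all protein coding. An excess over a like set was not tested.

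All 5 genes grouped by symbol as eIF4A helicases, eIF4B and eIF4H rose, against 33% of all genes tested. EIF4B, which stimulates the helicase, had 8536 and 7723 normalized counts at 6 h and 14511 and 12914.5 at 24 h, with a log2 fold change of 0.75 (SE 0.0805, adjusted P = 5.71e-09). The groups were well apart, although 33.0% of its 50-base stretches occur in other genes, mainly pseudogenes. EIF4A1, EIF4A2 and EIF4A3 had log2 fold changes of 0.41, 0.22 and 0.21, and every 50-base stretch of the EIF4A1 transcript is also in another annotated transcript, among them a read-through transcript. The smallest rise was that of EIF4H, with 4249 and 3840.4 counts and then 4651 and 4465 (log2 fold change 0.17, SE 0.0731, adjusted P = 0.0406), a call lost with library size scaling, with DESeq2, with no filter and without any 1 of 3 libraries.

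Of the eIF4G scaffolds only EIF4G1, which joins the cap-binding protein to eIF3, passed the test. EIF4G1 had 7934 and 8364 normalized counts at 6 h and 12881 and 15219.9 at 24 h, with a log2 fold change of 0.79 (SE 0.0824, adjusted P = 4.16e-09). Its 24 h libraries differed from each other more than its 6 h libraries, yet both were far above them. Its locus lies within the interval the table gives for EIF2B5. EIF4G2, an eIF4G relative that does not bind eIF4E, had 25918 and 25403 and then 26222 and 25334, with a log2 fold change of 0.01 (95% interval -0.16 to 0.17), and its groups overlapped. EIF4G3 had a log2 fold change of 0.07 (95% interval -0.08 to 0.22).

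Among the cap-binding proteins 1 of 3 rose, against 33% of all genes tested. EIF4E itself had a log2 fold change of -0.05 (95% interval -0.21 to 0.11). EIF4E2, a cap-binding form tied to translational repression, had 3206 and 3288 normalized counts and then 3101 and 2975, a log2 fold change of -0.10 (95% interval -0.24 to 0.05). The atypical form EIF4E3 rose from 378 and 327 to 613 and 589.7, a log2 fold change of 0.77 (SE 0.0973, adjusted P = 1.08e-07). Its groups did not overlap, with 24 h above 6 h as in 41% of all genes tested.

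The largest rise of any factor was that of EIF4ENIF1. It encodes 4E-T, which binds eIF4E, carries it into the nucleus and represses bound mRNAs. EIF4ENIF1 had 845 and 804 normalized counts at 6 h and 1834 and 1748 at 24 h, a 2.17-fold rise (95% interval 1.95 to 2.42, log2 fold change 1.12, SE 0.0742, adjusted P = 4.46e-13). Both late libraries were far above both early ones. Its interval overlaps those of DRG1 and SFI1, and no source used here states that reads were counted by strand, so reads in the shared stretches cannot be assigned to 1 gene.

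The 4E binding proteins, which compete with eIF4G for eIF4E, moved in opposite directions. EIF4EBP1 fell from 1742 and 1796 normalized counts to 1302 and 1319, a log2 fold change of -0.43 (SE 0.0704, adjusted P = 6.03e-06). EIF4EBP2 rose from 4785 and 4538 to 5355 and 5657, a log2 fold change of 0.24 (SE 0.0716, adjusted P = 0.00472), a call lost without BLU24H replicate 2 at a log2 fold change of 0.21. The groups of neither gene overlapped, as in 40.8% (24 h below) and 41% (24 h above) of all genes tested.

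The promoters of EIF4B, at chr12:53006356-53006480 on the plus strand, and EIF4ENIF1, at chr22:31489818-31489942 on the minus strand, are shown with the same marks. The first holds an E-box and a pyrimidine run and the second holds no marked motif.
EIF4B: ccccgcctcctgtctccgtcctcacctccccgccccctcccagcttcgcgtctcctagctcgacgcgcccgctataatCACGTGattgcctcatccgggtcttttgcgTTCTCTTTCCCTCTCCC
EIF4ENIF1: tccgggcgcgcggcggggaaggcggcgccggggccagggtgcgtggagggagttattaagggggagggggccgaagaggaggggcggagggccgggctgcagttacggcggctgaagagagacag

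The eIF2 subunits changed little and not all in 1 direction: 3 of 4 rose and 1 fell. Over all genes tested 33% rose and 32.6% fell. EIF2S3L, an expressed copy of the gamma subunit gene, had 1515 and 1553 normalized counts and then 2068 and 2018, a log2 fold change of 0.41 (SE 0.0698, adjusted P = 1.04e-05). It shares 25.2% of its 50-base stretches with EIF2S3, whose log2 fold change was 0.38. The alpha subunit gene EIF2S1, whose product is the target of the EIF2AK kinases, had a log2 fold change of 0.17 (adjusted P = 0.0320). The beta subunit gene EIF2S2 fell from 1163 and 1196 to 1101 and 972, a log2 fold change of -0.19 (SE 0.0785, adjusted P = 0.0391), a call lost with upper quartile scaling, with DESeq2 and without any 1 of 3 libraries.

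Of the 5 genes of eIF2B, the exchange factor of eIF2, 2 rose, 1 fell and 2 did not pass. The smaller rise, that of EIF2B1, was near the threshold (log2 fold change 0.17, adjusted P = 0.0492 in edgeR's test). Over all genes tested 33% rose and 32.6% fell. EIF2B5, the catalytic subunit, had 1708 and 1643 normalized counts and then 2097 and 1877, a log2 fold change of 0.25 (SE 0.0732, adjusted P = 0.00463, a call lost without BLU24H replicate 1, at 0.17), and the interval given for it spans 16 other genes, EIF4G1 among them. EIF2B2, a subunit of the regulatory core, fell from 1198 and 1155 to 921 and 972, a log2 fold change of -0.31 (SE 0.0763, adjusted P = 8.04e-04). EIF2D, which can deliver initiator tRNA in place of eIF2, rose from 1682 and 1562 to 1963 and 2006, a log2 fold change of 0.29 (SE 0.0710, adjusted P = 8.05e-04). EIF2A, an unrelated tRNA-binding factor, had 3842 and 3732 and then 4101 and 4043, a log2 fold change of 0.10 (95% interval -0.04 to 0.25).

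Among the EIF2AK kinases, 2 of 4 rose and 0 fell at an adjusted P under 0.05, against 33% and 32.6% of all genes tested. At an unadjusted P under 0.05, and with DESeq2, 0 fell as well. EIF2AK2, the double-stranded RNA sensor PKR, had 2009 and 1788 normalized counts at 6 h and 3371 and 3059.55 at 24 h, with a log2 fold change of 0.76 (SE 0.0761, adjusted P = 1.72e-09). EIF2AK3, the endoplasmic reticulum stress kinase PERK, had 557 and 549 and then 744 and 716, a log2 fold change of 0.40 (SE 0.0858, adjusted P = 2.03e-04). For both genes all late libraries lay above all early ones, as in 41% of all genes tested. EIF2AK4, the amino acid sensor GCN2, had 2581 and 2527 and then 2784 and 2645, a log2 fold change of 0.09 (95% interval -0.06 to 0.23). EIF2AK1, the heme-regulated kinase, had 4532 and 4493 and then 4193 and 4088, a log2 fold change of -0.12 (95% interval -0.27 to 0.02, adjusted P = 0.122). When counts were scaled by library size alone this fall passed the threshold, at a log2 fold change of -0.17 (adjusted P = 0.0409).

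The genes grouped by symbol as eIF1, eIF1A, eIF5 and eIF5B went both ways. EIF5, the GTPase-activating protein of eIF2, fell from 9187 and 8518 normalized counts to 7479 and 6771, a log2 fold change of -0.31 (SE 0.0764, adjusted P = 8.20e-04), a call lost without BLU24H replicate 2 (-0.24). EIF5B, the GTPase that joins the large subunit, rose from 1959 and 1608 to 3314 and 2769, a log2 fold change of 0.77 (SE 0.0880, adjusted P = 1.95e-08). The EIF5B interval overlaps REV1 and TXNDC9. EIF1B, a paralog of the codon-scanning factor EIF1, fell from 1158 and 1235 to 1029 and 953, a log2 fold change of -0.27 (SE 0.0772, adjusted P = 0.00314), with the call lost without the same library (-0.21), while EIF1 itself had a log2 fold change of 0.02 (95% interval -0.14 to 0.17). EIF1AD had 506 and 447 and then 532 and 534, a log2 fold change of 0.16 (95% interval -0.03 to 0.36), and EIF1AX had one of -0.11 (95% interval -0.26 to 0.03).

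EIF5A carries the modified amino acid hypusine and acts mainly in elongation and termination despite its name. It fell from 7115 and 7429.5 normalized counts to 6299.5 and 6107, a log2 fold change of -0.23 (SE 0.0720, adjusted P = 0.00695), although 38.7% of its 50-base stretches occur in other genes. Without BLU24H replicate 2 this call was lost too (-0.20). EIF5A2, its paralog, had 1534 and 1546 and then 1616 and 1561, a log2 fold change of 0.04 (95% interval -0.10 to 0.19). EIF6, which keeps ribosomal subunits apart, rose from 2420.3 and 2496 to 2899 and 2823, a log2 fold change of 0.22 (SE 0.0697, adjusted P = 0.00778).

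Ratios of read counts between paired factor genes were taken within each library, where scaling plays no part. In all 12 pairs the 24 h and 6 h libraries did not overlap, but with 2 libraries against 2 the smallest two-sided P of the exact permutation test is 0.333, so no ratio can pass that test. Groups that do not overlap are also common over all genes tested, 41% above and 40.8% below, so the count is no result about these pairs. The ratio EIF5B/EIF5 went from 0.213 and 0.189 to 0.443 and 0.409, a 2.12-fold change. EIF4E3/EIF4E went from 0.394 and 0.344 to 0.658 and 0.650, and EIF4EBP2/EIF4EBP1 from 2.75 and 2.53 to 4.11 and 4.29. These 3 ratios had the largest increases. The largest decreases were those of EIF4G2/EIF4G1, from 3.27 and 3.04 to 2.04 and 1.66, and EIF4G3/EIF4G1, from 0.303 and 0.261 to 0.184 and 0.161. EIF4EBP1/EIF4E, the count of binding protein reads per cap-binding protein read, went from 1.82 and 1.89 to 1.40 and 1.45. The EIF4E2/EIF4E pair moved least, with a log2 change of -0.04.

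**Figure D4:**
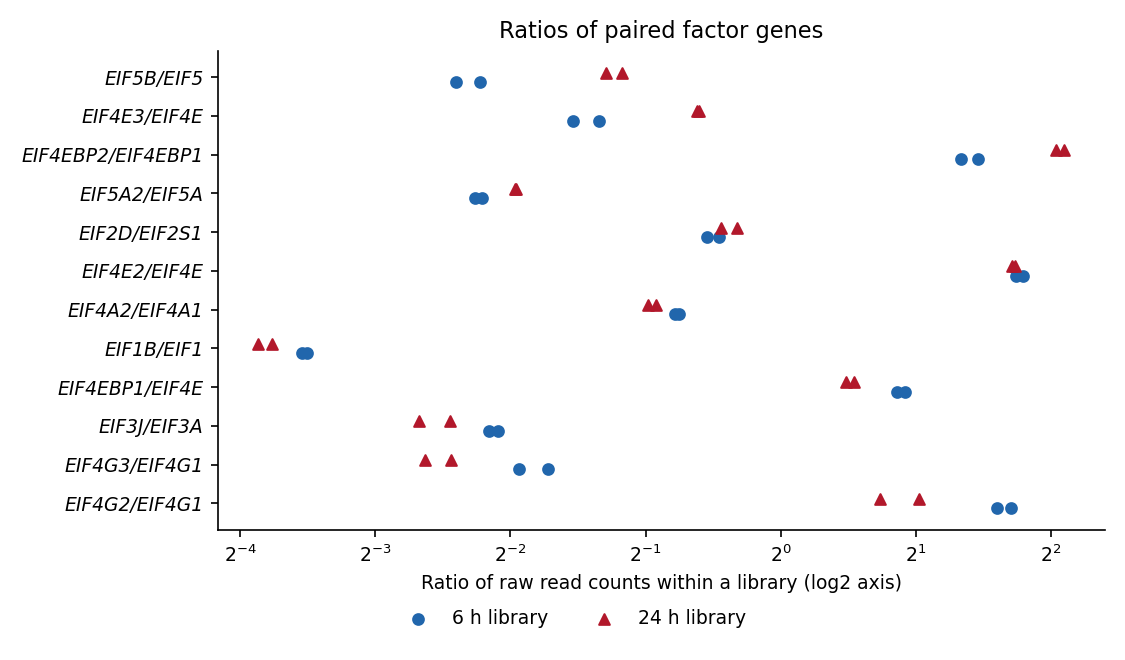
Ratio of raw read counts (log2 axis) of 12 pairs of factor genes in each 6 h (circles) and 24 h (triangles) library. EIF5B/EIF5 shifts furthest to the right and EIF4G2/EIF4G1 furthest to the left, and circles and triangles of a pair do not overlap.

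Other genes of translation were taken as 8 lists, with 77 measured genes of which 74 were tested. Of these 25 rose, 26 fell and 23 did not pass, with a median log2 fold change of 0.02, so the lists as a whole were close to the background of 33% and 32.6%. Of the 12 genes that regulate eIF4F or form mTORC1, 3 rose and 4 fell. MLST8, an mTORC1 subunit, rose by a log2 fold change of 0.69 (adjusted P = 4.75e-09), and RHEB, the GTPase that activates mTORC1, fell (-0.68, adjusted P = 2.08e-08). The mRNA-binding mTORC1 effector LARP1 (0.56) and the eEF2 kinase gene EEF2K (0.52) rose. MTOR had a log2 fold change of -0.04 (adjusted P = 0.683) and is named although it meets no rule of size.

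In the eIF2 phosphorylation response 2 of 12 genes rose and 4 fell, against 33% and 32.6% of all genes tested. TRIB3, a pseudokinase induced by ATF4, rose from 1631 and 1574 normalized counts to 2874 and 2759 (log2 fold change 0.81, adjusted P = 1.10e-10), and GCN1L1, the partner of GCN2, rose by 0.67. PPP1CC, a catalytic subunit of the phosphatase that acts on eIF2, had the largest fall of the list (-0.78, adjusted P = 6.88e-10). ATF4 itself, named after its value was seen, fell (-0.22, adjusted P = 0.0121).

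Of the 11 noncanonical initiation and helicase partners 5 rose and 4 fell, against 33% and 32.6% of all genes tested. The ribosome recycling ATPase gene ABCE1 rose by a log2 fold change of 0.80 (adjusted P = 2.20e-10), its relatives ABCF2 and ABCF1 by 0.70 and 0.68, and the helicase gene DHX9 by 0.55. MCTS1, whose product acts with DENR in place of EIF2D, fell (-0.52, adjusted P = 1.42e-06), while EIF2D rose. Of 8 tested genes of poly(A)-binding proteins and partners 3 rose and 2 fell, with the largest change in PABPC4 (0.65, adjusted P = 2.11e-08).

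The elongation factors rose most often: 7 of 8 tested genes were higher (87.5%), against 33% of all genes tested. Their median was 0.32 on the log2 scale, and EEF1B2 was lower (-0.19, adjusted P = 0.0438). EEF1A2, the tissue-restricted form of the tRNA carrier, rose from 2277 and 2239 normalized counts to 3983 and 4539, a log2 fold change of 0.92 (adjusted P = 3.66e-11). EEF2, the translocase, rose from 34903 and 34511 to 57414 and 59866.5, a log2 fold change of 0.76 (adjusted P = 1.25e-08). Both genes had late libraries far above the early ones.

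In the list of EIF5A hypusination and polyamine synthesis 5 of 9 genes fell and 2 rose, against 32.6% and 33% of all genes tested. Of the 5 that fell, OAZ1, OAZ2 and AZIN1 encode antizymes or an antizyme inhibitor, which control polyamine levels and neither modify EIF5A nor make polyamines. DHPS, the first enzyme of hypusine formation, fell (-0.48, adjusted P = 1.82e-06), beside the fall of EIF5A. ODC1, the entry enzyme of polyamine synthesis, fell (-0.67, adjusted P = 4.41e-08), as did the antizyme gene OAZ2 (-0.54). The later enzymes SRM and AMD1 rose, by log2 fold changes of 0.70 and 0.64.

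**Figure D5:**
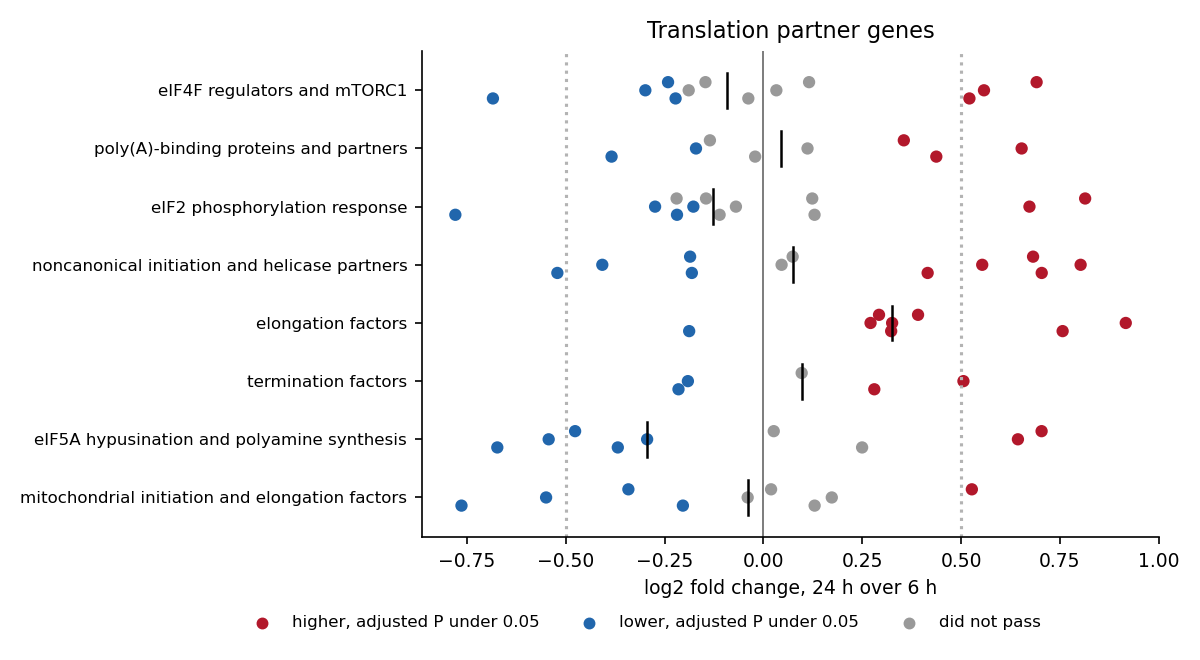
Log2 fold change at 24 h over 6 h of the 74 tested genes in 8 lists of translation partner genes (points, colored by the test at adjusted P under 0.05), with the median of each list as a black bar and dotted lines at 0.5 and -0.5. The elongation factors have the highest median (0.32), and the hypusination and polyamine list has the lowest (-0.29).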

How the data were processed

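The authors aligned reads with STAR (version 2.3 in the submitters' processing notes, a later one in the methods) and deposited raw read counts per gene on hg19. The counting program and its strand setting are not given in the sources used here. The authors also deposited a normalized signal, the count divided by a DESeq2 size factor, and their comparison of the times (log2 fold change, standard error, Wald score and p-values), which were not used. No sample column was left out (0).

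Counts were tested on all genes with edgeR 4.0.16 in R 4.3.3 (filterByExpr, TMM, quasi-likelihood test, time as the factor, Benjamini-Hochberg over 12876 genes), after the step was tested on simulated data. Normalized counts divide each raw count by its library's effective (TMM) size, set to average 1 over the 4 libraries. Standard errors came from the F statistic, and 95% intervals from its degrees of freedom. With 2 libraries per time and a common biological coefficient of variation of 0.0521, the standard error of a well-counted member was about 0.07. Rose and fell mean an adjusted P under 0.05. All members, and the partner and marker lists, were chosen with earlier results of these data known. Values per library are given for members past the cutoffs of the methods, the largest rise and fall of each complex, the kinases and the 4E binding proteins, and partner genes are named if past those cutoffs or largest in their list. PABPC5, EEF1G and GSPT2 were not tested. Shared 50-base stretches and lengths were taken from GENCODE v44 transcripts, and promoters from RefSeq (GRCh38.p14). By their deposited hg19 intervals, 25 of 55 members overlap another gene, EIF2AK2 (GPATCH11) and EIF4E3 (GPR27) among them. Of 56 members, 15 have over 10% of shared stretches. Of the 35 tested factors below that limit 19 (54.3%) were higher and 5 (14.3%) lower, against 33% and 32.6% of all genes tested. Alternatives were other scalings, DESeq2 1.42.0, other filters, a stricter threshold, a replicate block and leaving out each library.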

Additional observations from a re-analysis of the deposited data

How the results depend on the processing

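Of the counts, medians, named member genes and ratios recomputed, none that was called changed direction. EIF4G2, which did not pass at 0.01, was at -0.04 with library size alone and at -0.01 without BLU24H replicate 1 or without BLU6H replicate 2. With library size alone as the scaling, the median log2 fold change of the factors was 0.16 (all genes -0.040), 1 kinase gene, EIF2AK1, was lower instead of 0, and EIF4H lost its call. Leaving out each library in turn gave a median log2 fold change of the factors from 0.17 to 0.23, against 0.0024 to 0.0058 for all genes. Without BLU24H replicate 2, 3 factors instead of 7 and 15 partner genes instead of 26 were lower, and EIF1B, EIF2S2, EIF4EBP2, EIF4H, EIF5 and EIF5A lost their calls, at log2 fold changes of -0.21, -0.09, 0.21, 0.21, -0.24 and -0.20. Without BLU24H replicate 1 the median of the factors was 0.17, and EIF2B5 and EIF4H lost their calls. Without BLU6H replicate 1 EIF3I, at -0.54, was past the cutoffs. These fits keep 1 library at a time, which is assumed to vary like the others. Fewer samples lower the power, and no other cause was tested. At an adjusted P under 0.01, 22 factors were higher and 6 lower, but the share of all genes at this threshold was not taken. Whether the replicate numbers pair the libraries is not known, and the low correlation of deviations (0.0844) cannot decide it. With the replicate block 28 factors were higher and 7 lower, as without it, and partner genes were 25 higher and 28 lower. Over all genes tested 4524 were higher and 4448 lower with the block, against 4247 and 4196 without it. With DESeq2 25 factors were higher and 6 lower, against 27.8% and 28.0% of all genes tested. The filter on low counts left 4 factors untested. Members with few reads had wider errors (SE 0.210 for EIF3C, 0.104 for EIF2B3, 0.0937 for EIF1AD).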

Other observations

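The mitochondrial initiation and elongation factors act on the mitochondrial ribosome. Of these 9 genes, 1 rose, 4 fell and 4 did not pass, against 33% higher and 32.6% lower over all genes tested. Their median log2 fold change was -0.04, against 0.0029 for all genes. The difference from the cytosolic factors was not tested. GFM1, the mitochondrial translocase, rose from 1459.5 and 1382 normalized counts to 2107 and 1987 (log2 fold change 0.53, adjusted P = 3.77e-07 in edgeR's quasi-likelihood test), while GFM2, which recycles mitochondrial ribosomes, had the largest fall (-0.76, adjusted P = 4.89e-09). MTRF1L, the release factor, also fell past the cutoffs (-0.55, adjusted P = 2.33e-05).

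Of the 5 tested genes of cytosolic termination 2 rose, 2 fell and 1 did not pass, against 33% and 32.6% of all genes. Their median log2 fold change was 0.10. N6AMT1, the catalytic subunit of the methyltransferase that modifies the release factor ETF1, had the largest change, 0.51 (adjusted P = 5.31e-04), from 213 and 239 to 296 and 346 normalized counts.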
